A study of Mus musculus with 8 samples.

Results

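C1q-high infiltrating macrophages are phagocytes of the allograft that carry many transcripts of C1qa, C1qb and C1qc, the chains of complement component C1q. C1q binds antibody complexes and dying cells and marks them for uptake. Macrophages, rather than hepatocytes, make most of it. In a graft, monocytes from the recipient's blood enter the organ and can become macrophages that show antigen on MHC class II molecules. Interferon gamma from T cells drives class II genes through the transactivator Ciita, and it also induces Cxcl9 and Cxcl10, the chemokines that attract T cells bearing Cxcr3. Resident macrophages of the liver, the Kupffer cells, are known instead for Clec4f, Cd5l, Vsig4 and Timd4.

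The cells came from heart, liver and kidney allografts and from recipient blood, 7 days after transplantation without immunosuppression. The study placed organs of BALB/c mice, 8 weeks old, into C57BL/6 recipients, and the labels give BALB/c males of 8 weeks for all 8 libraries. There was 1 Microwell-seq library for each of heart, liver and kidney PBMC (blood mononuclear cells), heart, liver and kidney TIL (lymphocyte preparations of the graft) and liver and kidney PC (the solid organ). The study used 2 recipients per organ, whether they were pooled is not given in the sources used here, and TIL were isolated from the same graft samples, so libraries may share animals and no test between conditions was possible.

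A cell was counted as a C1q-high macrophage when it held at least 5 UMIs (unique molecular identifiers, counts of single transcripts) of C1qa, C1qb and C1qc together. It also needed at least 1 UMI of Csf1r, Adgre1 or Ms4a7, none of Clec4f or Cd5l, fewer than 5 of Ccl7, Ccl8 and Ccl12 together, fewer than 2 of Arg1 and at most 1 of Cd3d, Cd3e, Cd3g and Trac. Cells with fewer than 500 UMIs or over 10% mitochondrial UMIs were left out. The rule found 1767 cells among 31804 passing cells of the 5 tissue libraries, or 5.56%, and those of all 8 libraries numbered 47541. The cells were thus chosen by the UMI counts of these 16 genes, whose levels are given as a description only.

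C1q RNA was also present outside macrophages in the tissue libraries. Among T cells, which should not make C1q, 17.3% in the heart-labelled TIL library, 22.2% in the liver-labelled one and 19.0% in liver PC held at least 5 C1q UMIs. The share was 1.57% in kidney TIL and 8.67% in kidney PC. It was 0 of 729, 0 of 308 and 0 of 414 T cells in heart, liver and kidney PBMC, with exact upper limits of 0.505%, 1.19% and 0.887%. Of the 1767 cells, 896 held only 1 UMI of Csf1r, Adgre1 or Ms4a7 and 822 held 1 T-cell UMI. Levels below are therefore set beside those of T cells in the same library, taken as a rough measure of the free RNA of that library. These T cells held no UMI of Csf1r, Adgre1 or Ms4a7, which leaves out T cells with free RNA of these genes. Their levels can thus be too low, and ratios to them too high. Without the limit on T-cell UMIs 3572 cells met the rule, and those beyond the 1767 are in neither class.

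The labels of 2 libraries went against their organ markers. A list of 9 hepatocyte genes stood at 493 UMIs per 1000000 (CPM) in the heart-labelled TIL library and at 2.22 CPM in the liver-labelled one. For 8 cardiomyocyte genes the order was the opposite, 26.1 against 176 CPM. Macrophages with at least 2 UMIs of Clec4f and Cd5l together and at least 5 of C1q numbered 48 in the heart-labelled TIL library, 82 in liver PC and 0 in the liver-labelled one. Both are named by their labels throughout, as the heart-labelled and liver-labelled TIL libraries. Barcodes of 242 of the 1767 cells, or 13.7%, also occurred in another library.

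The rule was met by 535 cells in the heart-labelled TIL library, 560 in the liver-labelled one and 641 in liver PC. Kidney TIL held 17 and kidney PC 14. As shares of passing cells these were 5.53%, 6.0%, 6.41%, 0.848% and 1.76%. The exact 95% binomial intervals of the heart-labelled TIL library and liver PC, 5.09 to 6.01% and 5.94 to 6.91%, overlapped slightly, and both kidney intervals lay below them. Over the cells with a macrophage UMI and at most 1 T-cell UMI, the shares were 39.3%, 30.1%, 42.3%, 21.8% and 28.0% in the same order. The kidney tables held few deep cells, with medians of 617 and 572 UMIs in their members against 958, 818.5 and 1833 in the other 3. In blood, 3 of 7772, 6 of 6822 and 0 of 1143 cells of heart, liver and kidney PBMC met the rule. The exact upper limit of the last is 0.322%.

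**Figure D1:**
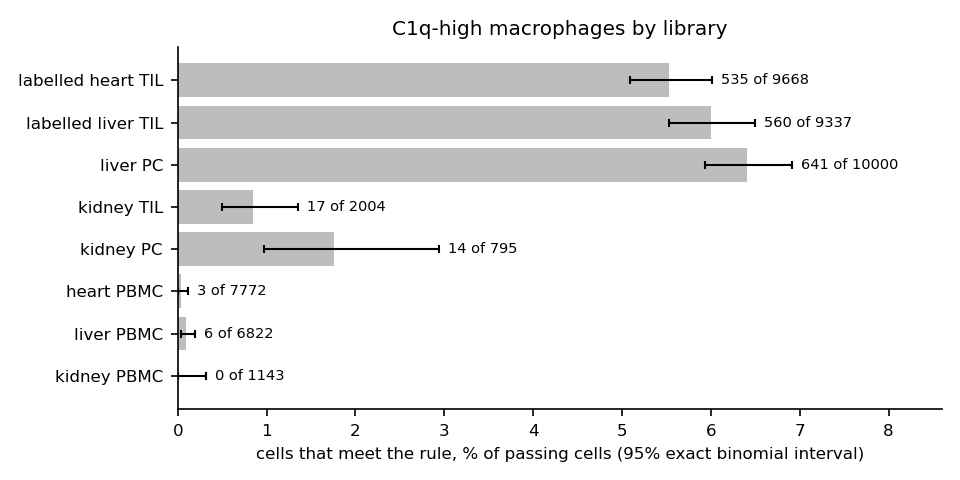
Share of passing cells that met the rule for C1q-high macrophages in each of the 8 libraries, in percent, with exact 95% binomial intervals and the counts beside each bar. The heart-labelled TIL library, the liver-labelled one and liver PC stand at 5.53 to 6.41%, kidney TIL and PC at 0.848 and 1.76%, and blood near 0.

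Just inside the C1q threshold, 243 members held exactly 5 C1q UMIs. Just outside it, 286 cells met every other part of the rule with 4. The median was 10 C1q UMIs per member in the heart-labelled TIL library, 8 in the liver-labelled one and 17 in liver PC. C1qb gave the most UMIs of the 3 chains in all 5 libraries, from 39.8% of the C1q UMIs in kidney TIL to 55.2% in the heart-labelled TIL library.

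The label was set beside markers that the rule did not use. H2-Aa, the alpha chain of the class II molecule I-A, stood at 4114 CPM in the heart-labelled TIL library, 6176 CPM in the liver-labelled one, 5500 CPM in liver PC, 8779 CPM in kidney TIL and 6026 CPM in kidney PC. T cells of the same libraries held 1251, 1949, 779, 718 and 1883 CPM. Cxcl9 stood at 837, 1290, 1688, 3327 and 2481 CPM in the members and at 315, 493, 271, 364 and 907 CPM in the T cells. Both markers were higher in members than in T cells in 5 of 5 libraries, with Poisson intervals of the members that lay above the T-cell level. The T-cell list stood at 0.12 to 0.43 of its level in T cells. Members and T cells were chosen by their macrophage and T-cell UMIs, so a lower T-cell list in members was set by that choice. The differences in H2-Aa and Cxcl9 likewise describe classes chosen apart and are no independent check. The dendritic cell list of 12 genes summed to 112, 78.7 and 103 CPM in the 3 larger libraries, or 1.76, 1.12 and 2.31 times T cells. Among its genes Batf3 stood at 65.9, 35.6 and 67.0 CPM and Clec9a at 13.5, 9.37 and 21.1 CPM, both above T cells, while Flt3, Xcr1, Cd209a and Siglech stood at 3.38 CPM or less. The Kupffer cell list without the rule's genes summed to 208, 28.1 and 247 CPM, or 1.63, 1.5 and 2.47 times T cells. Marco, at 94.7, 3.75 and 168 CPM, and Slc40a1, at 94.7, 5.62 and 67.0 CPM, gave most of it in the heart-labelled TIL library and liver PC, while Vsig4 and Timd4 stood at or below 4.37 CPM in all 3. The part of these cell types in the levels was not tested.

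The promoters of 4 genes that were higher in the members in the comparisons below are printed, a pair of class II genes and a pair of genes of the interferon gamma list. All are upstream stretches of 100 bases from RefSeq (GRCm38.p6), written 5′ to 3′ on the gene's strand in lower case, with the named motif in capitals. The Y box, CCAAT or its reverse complement, is the site of the factor NF-Y in class II promoters.
H2-Aa (chr17:34287824-34287923, minus strand, Y box 48 bases before the start site): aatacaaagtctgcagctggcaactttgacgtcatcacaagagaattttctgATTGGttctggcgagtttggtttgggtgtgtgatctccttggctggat
H2-Eb1 (chr17:34305767-34305866, plus strand, Y boxes 59 and 35 bases before the start site): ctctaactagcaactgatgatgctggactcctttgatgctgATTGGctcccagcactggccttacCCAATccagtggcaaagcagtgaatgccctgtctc
Serpina3g (chr12:104236047-104236146, plus strand, GAS 33 bases before the start site): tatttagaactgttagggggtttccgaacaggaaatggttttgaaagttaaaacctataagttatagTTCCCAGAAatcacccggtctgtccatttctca
Gbp2b (chr3:142594680-142594779, plus strand, ISRE 137 bases before the start site): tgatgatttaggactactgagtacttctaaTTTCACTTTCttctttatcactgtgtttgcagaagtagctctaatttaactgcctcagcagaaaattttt
The GAS letters searched on both strands were TTCNNNGAA, an element of interferon gamma-induced promoters, and the ISRE is the site of interferon regulatory factors. Among 32851 promoters of 300 bases, 37.4% held a Y box, 8.30% a GAS and 3.44% an ISRE. A Y box is thus common, and a match is a description of the letters only. Cxcl9 held a Y box and neither other motif in its window, and Cxcl10 and Gbp2 each held an ISRE. C1qa, Cxcl16 and H2-Ab1 were not in the table used.

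Class II presentation stood well above T cells in each library. The class II list, read as a sum without the rule's genes, stood at 43242 CPM in the heart-labelled TIL library, 57631 in the liver-labelled one, 41674 in liver PC, 75871 in kidney TIL and 57781 in kidney PC. These sums were 3.22, 2.96, 6.48, 11.8 and 3.0 times those of T cells. Cd74, the invariant chain that guards the class II groove, led with 16393, 20159, 13015, 28648 and 23278 CPM. H2-Ab1, the I-A beta chain, followed with 9585, 12594, 7905, 14232 and 10989 CPM. Kidney TIL had the highest value for both, although its 17 cells give it wide intervals, 25547 to 32021 CPM for Cd74 and 12073 to 16665 CPM for H2-Ab1. The Cd74 interval overlapped that of kidney PC. The H2-Ab1 interval overlapped those of kidney PC and the liver-labelled TIL library. H2-Oa and H2-Ob, the brake on peptide loading known from B cells, stood at 18.7 CPM or less in the 3 larger libraries, and Ciita at 9.47 CPM or less.

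Other macrophage functions also stood above T cells. Lysosomal genes were 2.35, 2.26 and 3.63 times the T-cell sum in the heart-labelled TIL library, the liver-labelled one and liver PC. Phagocytic and scavenger receptors were 2.72, 2.22 and 4.49 times, Fc receptors 2.42, 2.26 and 4.35 times and lipid-handling genes 2.0, 1.97 and 3.07 times. Msr1, a scavenger receptor, stood at 561, 326 and 551 CPM, and the inhibitory lectin Clec12a at 463, 523 and 476 CPM. Interferon gamma genes were at 1.5, 1.66 and 2.12 times the T-cell sum. The list of monocyte and alternative activation genes was at 0.93, 1.05 and 1.05 times, but S100a4, S100a6 and Ly6c2 of this list stood higher in T cells than in members in all 3 libraries, so the T-cell sum is no measure of its free RNA. Of 290 list genes outside the rule, 68 were at least 2-fold over T cells in all 3 larger libraries, and 62 with members of at least 2 macrophage UMIs and no T-cell UMI. Of the 290, 218 held at least 10 UMIs in each of these libraries. The background was 259 of 4366 genes (5.93%), all with at least 10 UMIs in each, and because the rule itself used T-cell and macrophage genes, the count is a description.

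**Figure D2:**
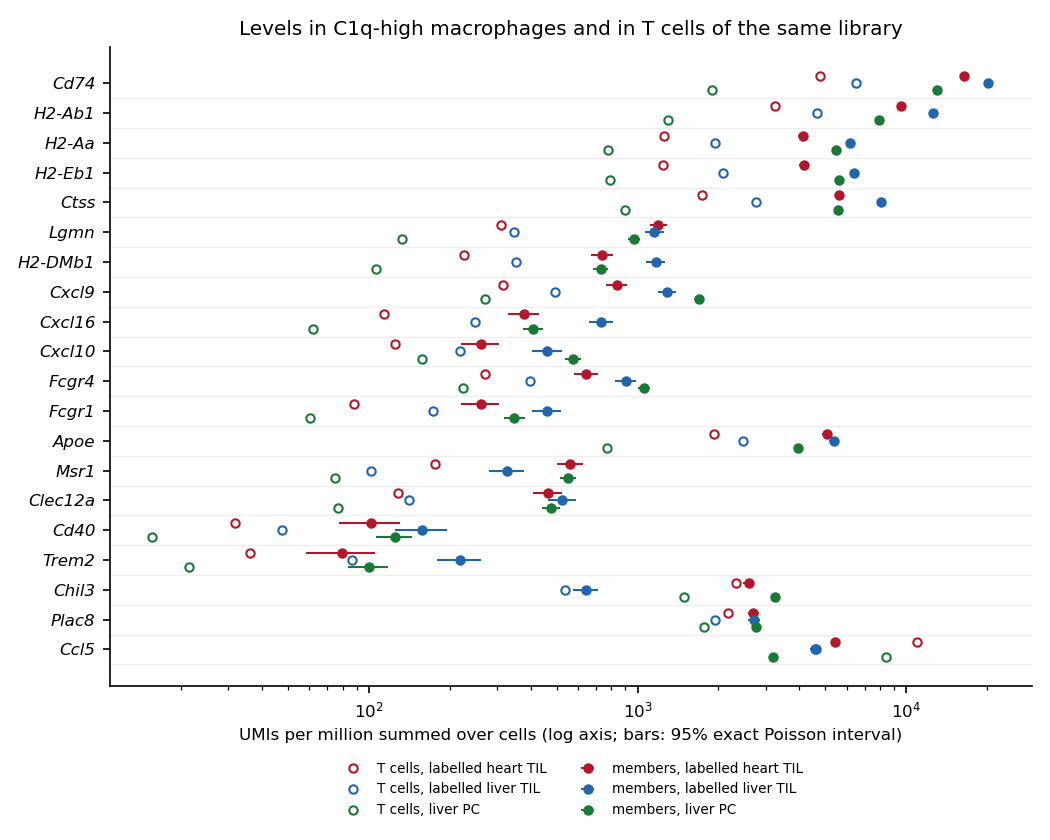
Levels of 20 genes in C1q-high macrophages (filled points) and in T cells (open points) of the 3 larger libraries, in CPM on a log axis, with exact 95% Poisson intervals for the members. Class II genes, Lgmn, Cxcl9 and Cxcl16 lie to the right of their T-cell points in each library, while Plac8 lies closer to its own and Ccl5 lies at or to the left of its own. Chil3 lies close to its T-cell points in the heart-labelled and liver-labelled TIL libraries and farther to the right in liver PC.

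The chemokines were not alike in this. Cxcl16, the ligand of Cxcr6, stood at 377, 731 and 409 CPM in members of the heart-labelled TIL library, the liver-labelled one and liver PC, against 113, 249 and 62 CPM in T cells. Cxcl10 stood at 260, 461 and 575 CPM against 125, 218 and 157 CPM. Ccl5, which T cells make in quantity, stood at 5456, 4573 and 3199 CPM in members against 11010, 4599 and 8433 CPM in T cells. Since T cells make Ccl5 themselves, their level does not measure its free RNA. Ccl17 and Ccl22, chemokines of dendritic cells, were at 0 in the members of all 5 libraries.

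After each cell was thinned to 500 UMIs, Cxcl9 was detected in 30.3% of members of the heart-labelled TIL library, 42.5% of the liver-labelled one and 44.5% of liver PC. Without thinning the shares were 48.2%, 57.9% and 78.3%. Thinned T cells gave 10.3%, 15.4% and 6.5%. H2-Aa was detected in 80.4%, 89.6% and 86.7% of thinned members and in 31.7%, 43.0% and 17.0% of thinned T cells. Without thinning, at least 2 UMIs of the cycle genes Mki67, Top2a, Birc5, Cdk1, Ccnb2 and Ccna2 together were held by 9.53%, 5.54% and 14.7% of members and by 24.7%, 18.2% and 42.0% of T cells, whose median depths were 806, 764 and 1439 UMIs. After thinning, 33.5%, 41.2% and 36.5% of members held no UMI of the wider list of 22 cycle genes.

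The members varied widely in class II. Among 500 UMIs, the class II list had a median of 21 UMIs (10th to 90th percentile 10 to 34) in the heart-labelled TIL library, 27 (11.9 to 47) in the liver-labelled one and 20 (9 to 33) in liver PC. Its variance was 3.82, 6.37 and 4.37 times its mean. For the interferon gamma list the same ratio was 1.38, 1.49 and 1.92, and for the neutrophil list it was 13.8, 6.23 and 12, above class II in 2 of the 3 libraries. This ratio tends to rise with the mean, so the lists cannot be ranked by it. The mean was 21.5, 27.8 and 20.4 UMIs for class II and 3.90, 6.62 and 5.44 for the interferon gamma list. Members were divided into 3 groups of similar size by their class II UMIs within each library. From the low to the high group, the share of cells with Cxcl9 went from 22.4 to 35.2%, 35.2 to 53.3% and 35.4 to 53.1%. Cd72, a coreceptor that restrains B cells and is also found on macrophages, went from 4.48 to 9.43%, 6.63 to 23.4% and 2.06 to 9.39%. S100a8, a neutrophil and monocyte gene, went the other way, from 70.1 to 59.7%, 79.1 to 49.7% and 65.8 to 41.8%, although the middle group of the heart-labelled TIL library was the lowest there, at 50.3%. Gbp2 was not higher in the high group, with 20.9 and 15.1%, 43.4 and 37.7% and 29.6 and 24.9%. Over cells, which share a library and a thinned depth, the rank correlation of class II with the T-cell list was between -0.38 and -0.19 and with the neutrophil list between -0.44 and -0.30. Cells low in class II thus tended to hold more RNA of these types, and its part in these shares was not tested.

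**Figure D3:**
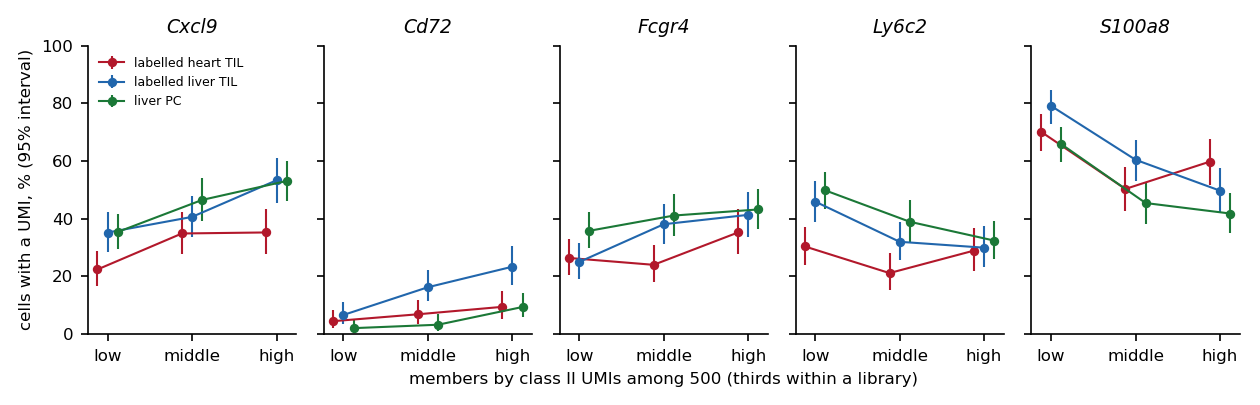
Share of members with a UMI of 5 genes after thinning to 500 UMIs, in percent with exact 95% intervals, by 3 groups of class II UMIs within each of the 3 larger libraries. Cxcl9 and Cd72 lie higher in the high group than in the low group in each library, and S100a8 lies lower.

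H2-Ea-ps, the class II Ea gene, distinguishes the strains as background knowledge: BALB/c mice transcribe it, while C57BL/6 mice carry a deletion of its promoter. In liver PC, members held 2 H2-Ea-ps UMIs beside 26114 UMIs of H2-Aa, H2-Ab1 and H2-Eb1, or 0.0766 per 1000 (exact 95% Poisson interval 0.00928 to 0.277). In the other tissue libraries they held 0, beside 10573 class II UMIs in the heart-labelled TIL library, 13424 in the liver-labelled one, 389 in kidney TIL and 212 in kidney PC. The exact upper limit from 0 was 0.349 and 0.275 per 1000 in the first 2 of these, while the kidney cells allow up to 9.48 and 17.4 per 1000. Across all 1767 members the ratio was 0.0394 per 1000 (0.00478 to 0.142).

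These Clec4f Cd5l macrophages differed from the members in this gene within the same libraries. In liver PC 16 of 82 such cells held 30 H2-Ea-ps UMIs beside 3255 class II UMIs, or 9.22 per 1000 (6.22 to 13.2). The heart-labelled TIL library gave 4 beside 1087, or 3.68 per 1000 (1.0 to 9.42). In both, the interval lay above that of the members. In liver PC and the heart-labelled TIL library, T cells, which should make little class II RNA, gave 0.892 and 0.741 per 1000. Both ratios lay above the members' intervals. Those T cells also held less of the class II RNA by which the ratio divides. Their H2-Aa level was 779 and 1251 CPM, where members had 5500 and 4114 CPM. H2-Ea-ps was seen in 22 of 4720 T cells against 2 of 641 members, and in 17 of 4466 against 0 of 535. The higher ratios thus do not show more H2-Ea-ps RNA in T cells than in members. The T cells of the liver-labelled TIL library gave 1 UMI beside 24034, or 0.0416. T cells of kidney TIL gave 3 beside 2554, or 1.175 per 1000, and those of kidney PC 8 beside 1862, or 4.30. Both lay within the wide intervals of the kidney members. Blood B cells, which come from the recipient, gave 0 beside 1638 class II UMIs in heart PBMC and 0 beside 2948 in liver PBMC. Monocytes and Arg1 macrophages gave 1 and 0 UMIs in liver PC. The intervals cover counting error only, each condition is 1 library, and the gene assigns no single cell to a donor or recipient.

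**Figure D4:**
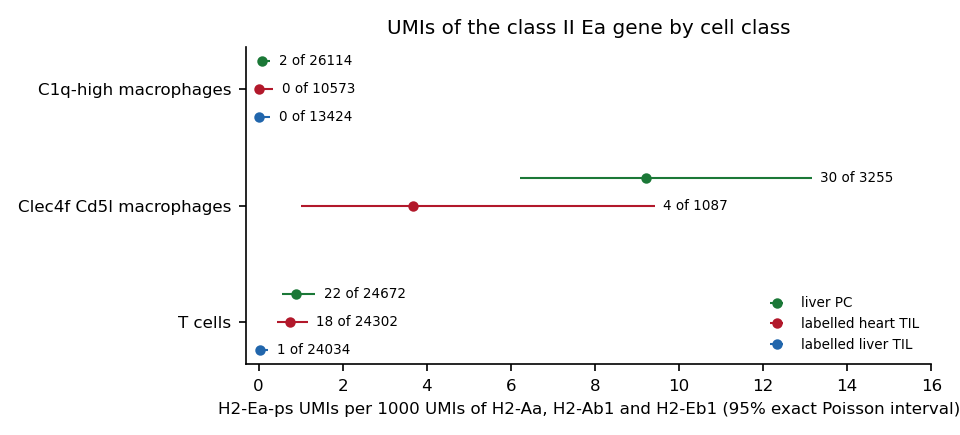
UMIs of the class II Ea gene per 1000 UMIs of H2-Aa, H2-Ab1 and H2-Eb1, by cell class and library, with exact 95% Poisson intervals and the counts beside each point. C1q-high macrophages lie near 0 in all 3 libraries, Clec4f Cd5l macrophages at 9.22 and 3.68, and T cells between them except in the liver-labelled TIL library, where they lie at 0.0416.

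In liver PC the same 2 macrophage classes also differed in other genes that the rule did not use. Vsig4 stood at 4.37 CPM in members against 640 CPM in the Clec4f Cd5l macrophages, Timd4 at 2.19 against 267 CPM, and the scavenger receptor Marco at 168 against 2859 CPM. Cxcl9 went the other way, with 1688 against 886 CPM, as did H2-Ab1, with 7905 against 5165 CPM. Saa3, an acute-phase protein, stood at 6397 against 1649 CPM and Chil3 at 3260 against 640 CPM. Apoe was closer, at 3957 against 3577 CPM. None of these Poisson intervals overlapped. With 1 library of 641 and 82 cells, they compare the cells of that library. The classes were split by their Clec4f and Cd5l UMIs, so differences in other Kupffer cell genes are no independent check. T cells of liver PC held 8.14 CPM of Vsig4 and 3.49 CPM of Timd4, inside the intervals of the members. The Clec4f Cd5l macrophages had no limit on Arg1, Ccl7, Ccl8 or Ccl12.

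The members were then compared with Chil3 Ly6c2 monocytes of the same libraries, to ask what distinguishes C1q-high cells from them. These cells held at least 2 UMIs of Chil3 and Ly6c2 together and at most 1 C1q UMI, and met the rest of the rule. T cells of the heart-labelled TIL library, the liver-labelled one and liver PC held 2326, 536 and 1483 CPM of Chil3. For Ly6c2 they held 1155, 1183 and 1816 CPM, so free RNA may meet this rule. The name is that of the rule, and the part of other cell types in the class was not tested. In members 9 of 10 class II genes, 13 of 24 lysosomal genes and 6 of 18 lipid genes tested were higher, and 10 of 15 genes of the monocyte and alternative activation list were lower. The 3 larger libraries entered, with 535 against 204 cells, 560 against 97 and 641 against 319, and edgeR's quasi-likelihood test was fitted with the library as a block. These libraries may share animals, so here and in the tests below the p-values do not measure the spread between animals. They rest on a spread between libraries that edgeR estimates largely over all genes together. So few libraries say little about the spread of any single gene. Of 4965 genes tested, 126 were higher (2.54%) and 163 lower (3.28%) in members at an adjusted p under 0.05. The monocytes of the heart-labelled TIL library held 723.5 UMIs at the median, against 958 in members, 711 against 818.5 in the liver-labelled one and 1344 against 1833 in liver PC.

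Class II genes rose together: 9 of 10 tested were higher and none lower, with a median log2 fold change of 0.71. H2-Eb1, the beta chain of I-E, stood at 4171, 6392 and 5616 CPM in members of the heart-labelled TIL library, the liver-labelled one and liver PC, against 2283, 3269 and 2159 CPM in monocytes. It was higher by 1.10 ± 0.0945 on the log2 scale (SE, 3 libraries, edgeR adjusted p = 6.46e-11). Lgmn, the protease legumain, was higher by 1.34 ± 0.108 (edgeR adjusted p = 1.57e-11). H2-Aa, H2-Ab1 and Cd74 were higher by 0.91, 0.92 and 0.71. The lysosomal list had 13 of 24 tested genes higher and none lower, among them Ctsb, Ctsd and Grn at 0.70, 0.66 and 0.79. MHC class I presentation had 0 of 19 called in either direction.

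Some lipid genes and phagocytic receptors were also higher. Apoe, the lipoprotein that carries cholesterol out of macrophages, stood at 5062, 5376 and 3957 CPM against 2670, 2281 and 1782 CPM, a log2 fold change of 1.12 ± 0.0918 (edgeR adjusted p = 2.33e-11). The lipid list had 6 of 18 tested genes higher and none lower, including Nr1h3, the sterol sensor LXR alpha, Gpnmb and Trem2 at 1.16, 1.55 and 0.79. Of 13 tested phagocytic receptors 5 were higher. Axl, a receptor for the bridging ligand Gas6 on dying cells, was higher by 1.56 ± 0.287 (edgeR adjusted p = 0.000236) and Msr1 by 0.61. Mertk, its relative, was higher by 1.17 in the fit, but in 2 of 3 libraries and with values of 37.2, 5.62 and 75.02 CPM against 23.5, 12.2 and 27.9 CPM. The largest increase with 1 sign in all libraries was that of Cd72, at 159, 366 and 140 CPM against 76.3, 73.2 and 18.0 CPM, a log2 fold change of 2.15 ± 0.251 (edgeR adjusted p = 7.05e-08). Sectm1a and Ckb, a creatine kinase, followed with 1.88 and 1.71, and the adhesion molecule Vcam1 was higher by 1.53. Sectm1a rested on 4, 1 and 1 UMIs in the monocytes. In the heart-labelled TIL library it was nearly level, at 25.35 against 23.47 CPM.

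Chemokines split by member. Cxcl9 was higher by 0.72 ± 0.111 (edgeR adjusted p = 1.53e-05), at 837, 1290 and 1688 CPM against 399, 1025 and 1016 CPM. Cxcl16 was higher by 1.34 ± 0.145, while Ccl3 and Cxcl2 were lower by 0.70 and 0.86 and Cxcl10 differed by -0.08 with an adjusted p of 0.864. Interferon gamma genes did not move as a group, with 2 of 30 tested higher (Cxcl9 and Gbp2b) and 1 lower (Gbp2). Gbp2b, a GTPase of the guanylate-binding family, was higher by 1.06 ± 0.197, while its relative Gbp2 fell by 0.69. Type I interferon genes had 0 higher and 3 of 21 lower, Ms4a4c, Zbp1 and Ifi27l2a.

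Of the 15 genes of that list, 2, Spp1 and Clec4n, were higher. The largest decreases included the granule genes Mmp8, Prtn3 and Lcn2 and the carbonic anhydrase Car2, which fell by 2.62, 1.93, 1.70 and 3.13. T cells held more Lcn2 and Car2 than members in each library, which was not so for Mmp8 and Prtn3. Car2 stood at 24.8, 23.8 and 16.8 CPM in T cells. In members it rested on 1, 3 and 7 UMIs. The part of free RNA in these falls was not tested. Plac8 fell by 0.93 and F13a1, the coagulation factor of classical monocytes, by 1.68. Ccr2, the receptor that brings monocytes out of the marrow, stood at 84.5, 285 and 173 CPM against 141, 476 and 337 CPM, and fell by 0.85. Among cytokines the inflammatory Il1b, Tnf and Osm fell by 0.93, 0.68 and 1.47, and Il18bp, which binds and blocks interleukin 18, was higher by 0.65. Costimulatory Cd86 and the receptor Slamf7 were higher by 0.72 and 0.96. Other cell types moved with these results. Resident macrophage genes had 4 of 6 tested higher, Marco, Hmox1, Sdc3 and Selenop, by 1.32, 0.60, 1.17 and 0.94, and Marco was the 1 gene of the Kupffer cell list tested. The neutrophil list stood at 3994, 4768 and 4716 CPM in members against 9906, 5734 and 15970 CPM in monocytes, with 5 of 6 tested genes lower. The plasma cell list stood at 2633, 18530 and 1583 CPM against 2400, 34190 and 4642 CPM, with 4 of 5 lower, and the part of any of these in the other calls was not tested.

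The counts depended on the libraries and the model. Without the heart-labelled TIL library 65 genes were higher and 89 lower, and without liver PC 28 and 31. Leaving the block out called 0 higher and 1 lower, with 233 genes at an unadjusted p under 0.05, and DESeq2 called 17 and 37. With no filter on low counts the balance turned, with 162 higher and 107 lower. Restricting members to those with at least 2 macrophage UMIs and no T-cell UMI gave 92 higher and 137 lower.

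Against macrophages that held at least 2 Arg1 UMIs, the members had fewer higher than lower genes. Arg1 breaks down arginine and marks alternatively activated and inflammatory macrophages. The comparators numbered 46, 162 and 79 in the heart-labelled TIL library, the liver-labelled one and liver PC, and 26, 109 and 53 of them also held at least 5 C1q UMIs. Of 3986 genes tested with edgeR over the 3 libraries, 10 were higher (0.251%) and 86 lower (2.16%) in members.

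All 10 higher genes were higher in 3 of 3 libraries. Cxcl9 stood at 837, 1290 and 1688 CPM in members against 266, 895 and 1043 CPM in Arg1 macrophages, a log2 fold change of 0.70 ± 0.149 (edgeR adjusted p = 0.00625). Serpina3g, a protease inhibitor induced by interferon gamma, was higher by 0.97 ± 0.179 (edgeR adjusted p = 0.00174). Fam26f, a membrane protein, was higher by 1.10 and Spic, the factor of red pulp and iron-handling macrophages, by 1.77. Spic stood at 186, 7.50 and 152 CPM against 61.4, 0 and 40.8 CPM, the latter resting on 3, 0 and 7 UMIs. Of 7 resident macrophage genes tested 0 were higher and 3 lower, Pf4, Marco and Hmox1. H2-Eb1 was higher by 0.47 ± 0.117 (edgeR adjusted p = 0.0227). It was the 1 class II gene called of 9 tested, and H2-Aa, H2-Ab1 and Cd74 had values of 0.27, 0.39 and 0.27 with adjusted p of 0.348, 0.0647 and 0.308. Aif1, a macrophage marker, and the interferon-induced Ms4a4c were higher by 0.49 and 0.67. Klrk1, a receptor of NK and T cells, and the immunoglobulin genes Igha and Igkc were the others, and T cells of the same libraries held more Klrk1, Igha and Igkc than the members in each. With members of at least 2 macrophage UMIs and no T-cell UMI the direction of Igkc turned, to -0.10.

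Among the lower genes, Fn1, fibronectin, stood at 13.5, 95.6 and 24.8 CPM in members against 184, 249 and 338 CPM, and fell by 2.76 ± 0.359 on the log2 scale (edgeR adjusted p = 2.11e-05). Thbs1, thrombospondin, and Pf4, a platelet-type chemokine made by some macrophages, fell by 3.17 and 2.88, and the metallothionein Mt2, the fatty acid binder Fabp7 and the acute-phase protein Orm1 by 2.57, 2.27 and 2.23. T cells held more Mt2 than members in each library, at 222, 167 and 180 CPM against 125, 65.6 and 97.6 CPM. Orm1 was also higher in T cells of the heart-labelled TIL library and liver PC, at 118 and 63.9 against 71.0 and 30.6 CPM. In the liver-labelled TIL library Orm1 was 1 UMI in members and 1 in Arg1 macrophages. The part of free RNA in these falls was not tested. Of 18 tested genes of the monocyte and alternative activation list 9 were lower and none higher: Chil3, Fn1, Spp1, S100a6, Thbs1, F13a1, Hp, Ccl9 and Ms4a8a. Lipid genes had 4 of 18 lower, Cd36, Plin2, Trem2 and Apoe, by 2.25, 1.34, 1.29 and 0.79. Apoe depended on the C1q of the comparators: against Arg1 macrophages with fewer than 5 C1q UMIs its difference was 0.12 in the other direction. Ccl6 and Ccl9 fell by 1.02 and 1.51, the lysosomal protease Ctsl by 1.56 and the LPS coreceptor Cd14 by 1.5. Nos2, the interferon-induced nitric oxide synthase, was the 1 interferon gamma gene that fell, by 1.59.

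Hepatocyte RNA moved with this comparison. The hepatocyte list stood at 353 CPM in members and 920 CPM in Arg1 macrophages of the heart-labelled TIL library, and at 162 and 373 CPM in liver PC. In the liver-labelled TIL library it was 1 UMI in members and 0 in Arg1 macrophages. Apoa2 was the 1 gene of the list called lower of 4 tested, and it was at 0 in both classes of that library. The part of this RNA in the other calls was not tested. Without the liver-labelled TIL library 32 genes were higher and 122 lower, without the heart-labelled one 3 and 41, and without liver PC 0 and 25, with 267 at an unadjusted p under 0.05. DESeq2 called 1 and 41, no filter on low counts 45 and 70, and without the block edgeR called 0 in either direction, with 173 at an unadjusted p under 0.05.

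**Figure D5:**
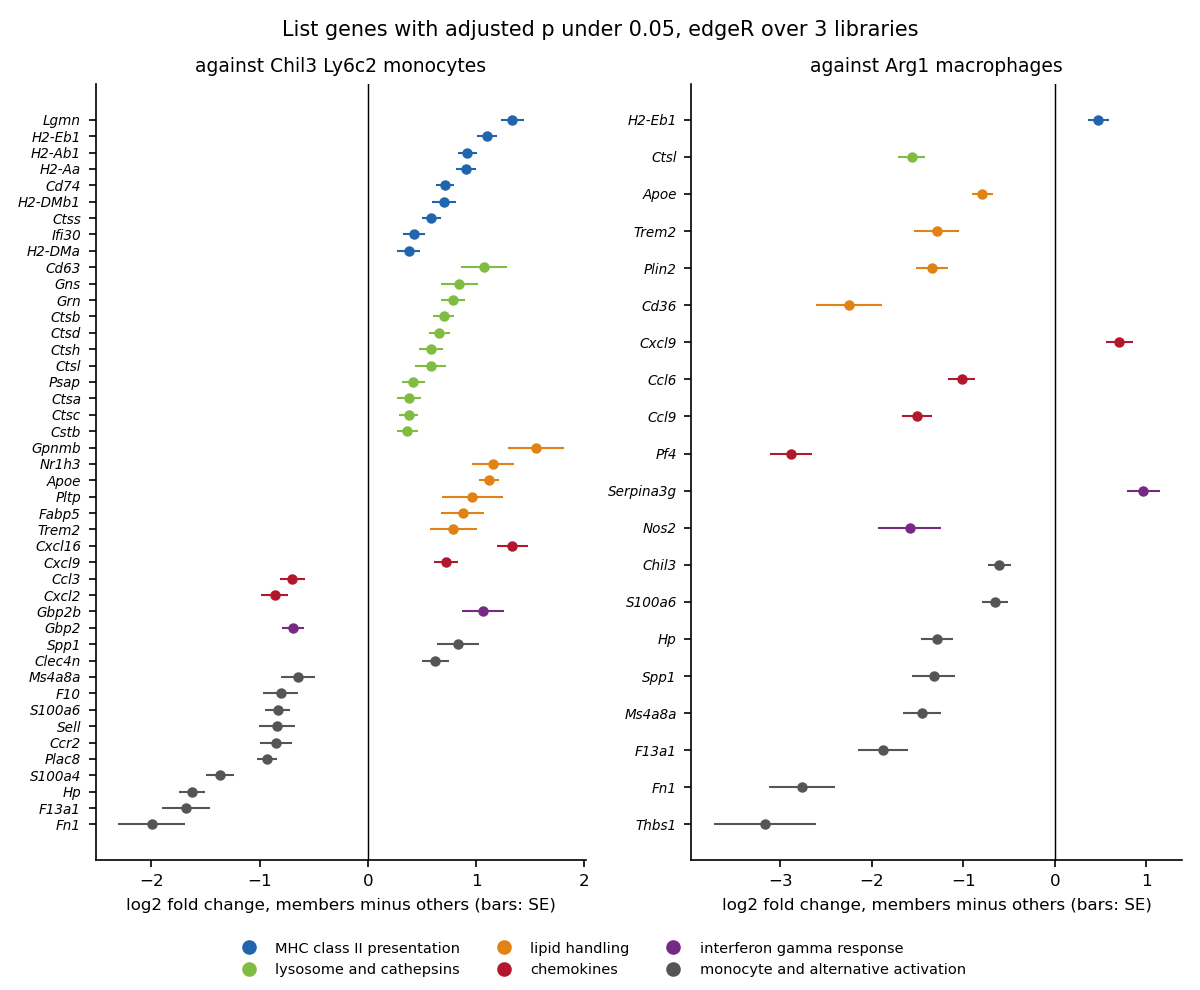
Log2 fold changes with SE of genes of 6 lists with an edgeR adjusted p under 0.05, members against Chil3 Ly6c2 monocytes (left) and against Arg1 macrophages (right), over 3 libraries. Each gene is drawn once, in the first of its lists. Class II, lysosomal and lipid genes lie to the right of 0 on the left, and lipid genes and those of the monocyte and alternative activation list lie to the left of 0 on the right. The members are the same in both panels, so the panels are not independent.

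Macrophages rich in the monocyte chemokines Ccl7, Ccl8 and Ccl12 reached 20 cells in 2 libraries, with 313 in the liver-labelled one and 28 in liver PC, so values are given with no test. Of these, 282 and 26 also held at least 5 C1q UMIs. Of 3154 genes with enough UMIs, 13 were at least 2-fold higher in members in both (0.412%) and 7 at least 2-fold lower (0.222%). Of the 13, all but Ly6i rest on 0 to 5 UMIs in the 28 comparator cells of liver PC, so only Ly6i is read. Apoe stood at 5376 and 3957 CPM in members against 12180 and 8906 CPM in the chemokine macrophages. Ccl2, another monocyte chemokine, stood at 319 and 110 CPM against 756 and 591 CPM, and Cd63, a lysosomal tetraspanin, at 307 and 100.5 against 656 and 473 CPM. Cd72 and Vcam1 were lower too, at 366 and 140 against 742 and 394 CPM and at 45.0 and 137 against 150 and 381 CPM. The monocyte surface protein Ly6i was higher, at 958 and 942 against 436 and 342 CPM. H2-Aa, at 6176 and 5500 against 6945 and 6962 CPM, and Cxcl9, at 1290 and 1688 against 1459 and 2890 CPM, were below the level of the chemokine macrophages.

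A test chosen after the data were seen took the 4 libraries with at least 10 cells in both classes. It called 29 of 2671 genes higher (1.09%) and 28 lower (1.05%). The heart-labelled TIL library gave only 18 chemokine macrophages and kidney TIL 11, the latter against 17 members. Of these 18 and 11 cells, 14 and 11 also held at least 5 C1q UMIs. Apoe in kidney TIL rested on 12 UMIs in members and 34 in chemokine macrophages. Apoe fell by 1.21 ± 0.112 on the log2 scale, lower in 4 of 4 libraries (edgeR adjusted p = 1.18e-23), and Cxcl9 by 0.53 ± 0.115 (edgeR adjusted p = 0.000597). Lysosomal genes had 7 of 24 lower and none higher. Plac8 was higher by 0.85, in 4 of 4 libraries, and Chil3 by 0.86, in 3 of 4. Other cell types moved with these genes: S100a8 and S100a9 of 5 neutrophil genes tested, Jchain and Igkc of 4 plasma cell genes, Gzma, the 1 NK cell gene, and Trbc2 of 7 T-cell genes were higher in members. The neutrophil list stood at 3994, 4768 and 4716 CPM in members of the heart-labelled TIL library, the liver-labelled one and liver PC against 1925, 3199 and 2233 CPM, and its part in the other calls was not tested. Of the called genes, 15 of the higher and 19 of the lower had the same sign in all 4 libraries.

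Between organs there was 1 library per condition, so differences are of size only. Members of the liver-labelled TIL library were set against members of the heart-labelled one and of kidney TIL. They were at least 2-fold higher than both for 101 of 3168 genes (3.19%) and lower for 12 (0.379%). The 17 kidney TIL cells hold 10821 UMIs, so 1 UMI there is 92.4 CPM. Most of the higher genes had 0 UMIs in kidney TIL, which meets the rule easily. The counts of higher and lower genes therefore cannot be compared. Haemoglobin, immunoglobulin and collagen genes led the higher ones: Hbb-bt stood at 3310 CPM against 10.1 and 0 CPM, with 3765 CPM in T cells of the same library. For 69 of the higher and 10 of the lower genes the T cells moved less far. This does not set the 69 apart from free RNA, since they include Hbb-bt, Igha and Igkc. T cells of the liver-labelled library held Igha and Igkc at 11090 and 20950 CPM, against 7949 and 15960 CPM in its members. Lpl, lipoprotein lipase, and Nr1h3 were among the lower ones, at 39.4 against 242 and 370 CPM and at 43.1 against 237 and 185 CPM, the kidney values resting on 4 and 2 UMIs. In liver PC these 2 genes stood at 635 and 273 CPM.

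Against the heart-labelled TIL library alone, 148 of 3709 genes were higher (3.99%) and 144 lower (3.88%) in the liver-labelled one. For 124 and 119 of these the T cells moved less far, which again does not set them apart from free RNA. Spic stood at 7.50 against 186 CPM, the iron exporter Slc40a1 at 5.62 against 94.7 CPM, Marco at 3.75 against 94.7 CPM and Saa3 at 2022 against 10780 CPM. Liver PC held 152, 67.0, 168 and 6397 CPM of these 4 genes. Ctsk, cathepsin K, stood at 73.1 against 1.69 CPM, Ccr2 at 285 against 84.5 CPM and Trem2 at 217 against 79.4 CPM. Since the organ markers of these 2 libraries went against their labels, no direction between heart and liver can be drawn from these values.

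Liver PC and kidney PC differed by the rule of size in 63.7% of 5892 genes upward and 17.7% downward. The 14 kidney cells hold 8463 UMIs, so 1 UMI is a large step and most genes are at 0 there. Only genes with many UMIs can be read: Cxcl9 stood at 1688 CPM (1620 to 1758) in liver and 2481 CPM (1536 to 3793) in kidney, and Apoe at 3957 CPM in liver with 0 of 8463 UMIs in kidney, with an exact upper limit of 436 CPM.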

How the data were processed

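Each of 8 libraries was a deposited table of UMI counts per gene and cell, with 10000 barcodes a library. According to the labels and the study's methods, the authors made these counts with bcl2fastq, Drop-seq tools and STAR on GRCm38, discarded multi-aligned reads and merged UMIs within 1 base. The deposited counts summed to between 3418722 and 19171264 UMIs a library.

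The members, gene lists and tests were chosen with earlier results of these data known. UMIs were summed over cells of a class and library (CPM, the UMIs of a gene per 1000000 of the class). Exact Poisson and binomial intervals at 95% cover counting error only, and the floor was 3 counts. T cells held at least 2 UMIs of Cd3d, Cd3e, Cd3g and Trac and none of Csf1r, Adgre1 or Ms4a7. Detection shares were taken after thinning cells to 500 UMIs, over at most 1000 cells a class. Classes within a library were tested over the summed counts of libraries with at least 20 cells in both, with edgeR 4.0.16 (TMM, filterByExpr, quasi-likelihood, two-sided, library as a block, Benjamini-Hochberg adjustment over all genes tested, threshold 0.05), in R 4.3.3. SEs are the fold change divided by the square root of F. The block is the shared library, from which both classes were drawn. P-values rest on the spread between libraries, which edgeR estimates largely over all genes together. The 16 genes of the rule were left out of the tests, as were Chil3 and Ly6c2 in the comparison with monocytes. The fit was tested on simulated data.

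Where fewer than 3 libraries or 1 library per condition were available, genes with at least a 2-fold ratio (1 on the log2 scale, 10 CPM added, at least 20 UMIs) were counted with no test. Genes named in the text are those of the lists and, per test, the 10 largest and 10 smallest fold changes of 1 sign in every library. Alternatives were DESeq2 1.42.0, no filter on low counts, no block, thinned cells, a floor of 1000 UMIs, other C1q thresholds and each library left out. No doublet caller was run. Members were drawn from T-cell-poor barcodes, and the 5% with the most UMIs were left out as an alternative.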

Additional observations from a re-analysis of the deposited data

Results flagged for a closer look

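In blood, where the rule was not meant to apply, 6 of 6822 passing cells of liver PBMC met it, or 0.0880% (exact 95% binomial interval 0.0323 to 0.191%), above the limit of 3 counts. Heart PBMC held 3 such cells and kidney PBMC 0. The 6 cells held 7.5 C1q UMIs at the median, and T cells of liver PBMC held 22.7 CPM of C1q.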

How the results depend on the processing

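Shares of passing cells moved with the C1q threshold. With at least 3 C1q UMIs they were 7.77% in the heart-labelled TIL library, 9.46% in the liver-labelled one, 7.69% in liver PC and 1.45% in kidney TIL. With at least 10 they were 2.77%, 2.51%, 4.61%, 0.399% and 0.377% in kidney PC. Allowing no T-cell UMI gave 2.91%, 3.01% and 3.63% in the 3 larger libraries. A floor of 1000 UMIs gave 8.57% and 7.80% in the heart-labelled and liver-labelled TIL libraries and 0% in both kidney libraries. With at least 2 macrophage UMIs and no T-cell UMI, chosen after seeing the data, the shares were 1.33%, 1.11%, 2.42%, 0% in kidney TIL and 0.126% in kidney PC. Calls against Arg1 macrophages, 96 in all, became 42 with DESeq2, 0 with no replicate block, 36 with thinned cells, 54 with comparators below 5 C1q UMIs and 25 to 154 when 1 library was left out. Calls against monocytes, 289 in all, became 54 with DESeq2, 1 with no replicate block, 113 with thinned cells, 158 with the floor of 1000 UMIs and 59 to 203 when 1 library was left out. The causes were not tested. The comparison with chemokine macrophages went from 20 genes by size to 57 by the test on at least 10 cells, chosen after seeing the data. The sign changed for 3 named values, Apoe against Arg1 macrophages below 5 C1q UMIs (0.12), Igkc against Arg1 macrophages with the stricter members (-0.10) and Ighm against monocytes without liver PC (0.32, with -2.19 as the lowest value when 1 library was left out). Direction was kept by 96 of 96 and 289 of 289 called genes with DESeq2 and with no block. Both refit the same summed counts, so a kept direction is no independent support. The floor of 1000 UMIs was not run against Arg1 macrophages, since 2 libraries had 20 cells. The chemokine comparison by size has 2 libraries and no test, so the tool, filter, block and left-out-library alternatives do not apply to it. These alternatives are not reported for the test on at least 10 cells, and thinning was run for neither. The kidney libraries, with 10821 and 8463 member UMIs, limit what can be read there.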
